A study of Drosophila melanogaster with 3 samples.

Results

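Strong Myc peaks without the canonical E-box were examined in Drosophila melanogaster embryos. Members were chosen by measured values: a deposited signal of at least 400 in the peak list filtered by irreproducible discovery rate (IDR), a measure of how alike replicates rank a peak, and no CACGTG within 50 bp of the summit, the point of highest signal. Of 4371 IDR peaks, 495 reached that signal and 402 of these lacked the box, against 93 that held it. The members are thus 81.2% of the strong peaks (95% Wilson interval 77.5 to 84.4%). Strength and the absence of the box define them and are not findings.

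The assay was ChIP-seq, immunoprecipitation of chromatin followed by sequencing, which recovers the DNA that a protein sits on. The flies carried a stable transgene for Myc (fly gene dm) fused at its C terminus to green fluorescent protein, and chromatin was pulled down through that tag. All 3 biological replicates form 1 group of whole embryos, males and females mixed, aged 0 to 16 h, so signals from all cell types and stages are pooled. The sources used here do not give the promoter of the transgene or the state of the endogenous gene.

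Myc is a basic helix-loop-helix leucine zipper protein that binds DNA as a dimer with Max. The dimer prefers the palindromic E-box CACGTG and tolerates related E-boxes less well. In flies, as in mammals, Myc is known as a driver of growth that acts on genes of ribosome assembly and protein synthesis. ChIP also recovers DNA that a factor reaches through other proteins, so that a peak need not hold the factor's own site.

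The sequences around the summits show what sets of peaks this comparison brings together. All are the plus strand of the dm6 genome (RefSeq), 50 bp to each side of the summit, with the searched word in capitals. As a reference, the first pair holds the box: one from an intron of crp, 7481 bp from the nearest coding start, that of CG4935 (chr2L:16269572-16269672, signal 1115), the other from the promoter of the ribosomal protein gene RpL24 (chr2L:13395112-13395212, signal 976).
CG4935: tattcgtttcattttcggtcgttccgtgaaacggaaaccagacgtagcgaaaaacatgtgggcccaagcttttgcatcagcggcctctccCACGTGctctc
RpL24: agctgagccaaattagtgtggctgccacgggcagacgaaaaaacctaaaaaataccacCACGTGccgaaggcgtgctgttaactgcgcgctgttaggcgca

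The next set are members with a variant E-box, which departs from the canonical one. They are the promoters of vig, a gene of the RNA interference machinery (chr2L:15068054-15068154, signal 1688), and of the ribosomal protein gene RpL14 (chr3L:8600940-8601040, signal 1519), with CATGTG on the strand shown or its complement, and an intergenic peak nearest to Kr-h1, a hormone-response transcription factor gene (chr2L:6079054-6079154, signal 958), with CAACGTG, a box with 1 base inserted. The window at Kr-h1 also ends inside a CACGTG, whose centre lies 50.5 bp from the summit.
vig: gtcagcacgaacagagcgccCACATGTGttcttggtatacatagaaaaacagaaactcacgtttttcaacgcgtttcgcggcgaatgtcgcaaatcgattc
RpL14: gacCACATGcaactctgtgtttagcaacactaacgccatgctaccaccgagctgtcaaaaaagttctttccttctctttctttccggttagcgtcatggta
Kr-h1: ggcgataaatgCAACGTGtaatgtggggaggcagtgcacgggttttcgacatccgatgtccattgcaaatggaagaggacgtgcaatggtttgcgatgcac

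Other members hold words of core promoters. TATCGATA, the DNA replication-related element (DRE) bound by DREF, is shown at CG13096 (chr2L:8511840-8511940, signal 936), whose window begins inside a CACGTG, and at RpS25, a small-subunit ribosomal protein gene (chr3R:11216280-11216380, signal 708). GGTCACAC, the core of Motif 1 bound by M1BP, is shown at CG10214 (chr3R:23767490-23767590, signal 627) and CG1542 (chr3R:31213385-31213485, signal 597).
CG13096: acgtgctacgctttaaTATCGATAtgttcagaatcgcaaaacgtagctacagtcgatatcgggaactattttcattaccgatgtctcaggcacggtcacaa
RpS25: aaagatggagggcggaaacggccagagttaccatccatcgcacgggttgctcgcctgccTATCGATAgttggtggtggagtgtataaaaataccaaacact
CG10214: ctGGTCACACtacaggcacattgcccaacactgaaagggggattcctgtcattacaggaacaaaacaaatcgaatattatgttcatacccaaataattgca
CG1542: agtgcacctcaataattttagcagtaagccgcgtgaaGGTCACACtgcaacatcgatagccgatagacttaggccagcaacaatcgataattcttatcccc

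The last set holds none of the 19 words searched. These windows belong to 4 of the strongest members: the promoters of CG14100 (chr3L:19590560-19590660, signal 2033), of the nucleotide-sugar transporter gene Ugalt (chrX:2703846-2703946, signal 1765) and of the arginine methyltransferase gene Art3 (chr3R:15229463-15229563, signal 1687), and an intron of CG11050 (chr2L:6612657-6612757, signal 1608). Their GC content was 26.7, 34.7, 26.7 and 21.8%. Low GC was not particular to windows without a word, since the window at CG4004 with CATGTG had 24.8%.
CG14100: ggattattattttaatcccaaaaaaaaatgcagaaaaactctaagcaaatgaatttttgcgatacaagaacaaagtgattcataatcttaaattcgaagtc
Ugalt: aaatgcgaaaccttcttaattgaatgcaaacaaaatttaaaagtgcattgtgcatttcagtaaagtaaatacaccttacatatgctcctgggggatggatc
Art3: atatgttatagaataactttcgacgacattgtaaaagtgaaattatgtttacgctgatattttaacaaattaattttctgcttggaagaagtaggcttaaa
CG11050: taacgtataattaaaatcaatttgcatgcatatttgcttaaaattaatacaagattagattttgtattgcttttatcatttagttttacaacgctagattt

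One replicate stood apart at these peaks. To compare replicates, each replicate's signals were scaled to its own median over IDR peaks. The replicate 3 ratio below is the log2 of this relative signal in replicate 3 over the mean of replicates 1 and 2; it was taken up after the values were seen and carries no test. At the 90 strong peaks with the box that were found in all replicates, it ran from -1.53 to -0.01 with a median of -0.59, so all 90 had less relative signal in replicate 3. A count of 0 above 0 allows a share of up to 3.33%. This held for strong peaks only: over all IDR peaks with the box, 26 of 240 found in all replicates (10.8%) lay above 0. Among strong peaks with the box the share was 3.25% at a signal minimum of 300 and 3.94% with the box sought within 100 bp. Members spread to both sides: of 393 found in all replicates, 207 (52.7%) lay above 0 and 186 at or below, against 48.7% above 0 over all 3767 IDR peaks found in all replicates. The members' distribution had a peak on each side of 0, with quartiles at -0.48 and 0.60. Median relative signals in replicates 1, 2 and 3 were 3.07, 2.85 and 3.08 at members, and 3.56, 3.67 and 2.47 at peaks with the box. Whether the difference comes from the embryos, the chromatin or the library was not tested, and results are given with and without replicate 3 where it matters.

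**Figure D1:**
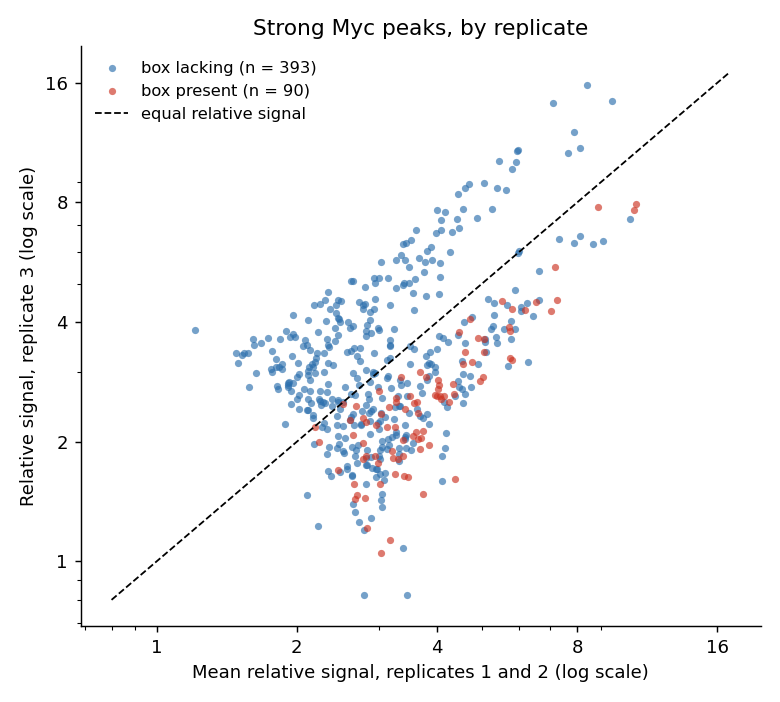
Relative signal in replicate 3 against the mean relative signal in replicates 1 and 2, both on log axes, for the strong peaks found in all replicates (393 lacking the box, 90 holding it); each point is a peak and the dashed line marks equal relative signal. All 90 peaks with the box lie below the line, while 207 of the peaks without it lie above.

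**Figure D2:**
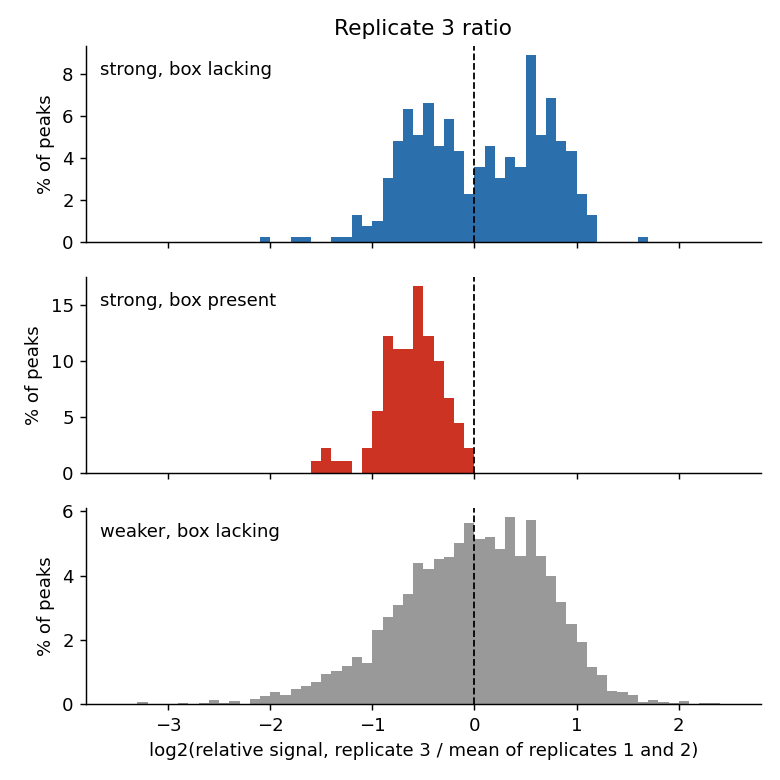
Distribution of the replicate 3 ratio (log2 scale, bins of 0.1) as % of peaks in each set, for strong peaks lacking the box, strong peaks holding it and weaker peaks lacking it. The members form a lobe on each side of 0, with the box-holding peaks under the lower one (median -0.59), and the weaker peaks spread around 0.02.

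The IDR list was made from the same replicates, so presence in all of them is largely set by that selection. In the strongest 4371 peaks of each replicate, 392 members (97.5%) were present in all 3 lists, and 90 of the peaks with the box (96.8%). Taken replicate by replicate, the strongest 495 peaks of replicates 1, 2 and 3 lacked the box in 76.8, 75.4 and 89.5% of cases (mean 80.5% ± 7.79, SD, n = 3). Replicate 3 was the highest of the 3. Among IDR peaks, the share lacking the box was 86.3% at signals of 400 to 500, 76.0% at 500 to 700, 80.5% at 700 to 1000 and 81.4% of the 43 peaks above 1000.

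Of the 12 strongest promoter members, 7 had their highest relative signal in replicate 3. CG14100 had relative signals of 9.54, 7.28 and 15.8 in replicates 1, 2 and 3, and Ugalt 7.33, 6.89 and 14.2. In both, replicate 3 was the highest. px, a wing-vein patterning gene, followed with a mean of 9.25 ± 2.39 (SD, n = 3) and a ratio of 0.61, and Art3, whose peak also reaches the start of the mitochondrial ribosomal protein gene mRpS10, had 8.19, 8.06 and 11.0. Chro, a gene of a chromatin protein of polytene interbands, had 5.84, 6.02 and 10.8, in a peak shared with Ssl1. CG1888 (6.83, 5.12 and 10.8) and PNPase, the mitochondrial polynucleotide phosphorylase gene (6.93, 4.89 and 10.1), were also highest in replicate 3. The ratios of the 7 ran from 0.44 to 1.00.

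The other 5 of those 12 leaned the opposite way. vig had relative signals of 9.85, 10.9 and 7.28, RpL14 (shared with Nelf-E) 9.58, 8.59 and 6.39, and RpL41 (shared with NaCP60E) 9.49, 7.80 and 6.29. RpL30 had 8.64, 7.56 and 6.57, and Rrp5, a factor of early pre-rRNA processing (shared with Dis3), 8.88, 6.89 and 6.32. Replicate 3 was the lowest in each, with ratios from -0.51 to -0.30. The 5 strongest peaks with the box had ratios from -0.67 to -0.19. RpL11 had 11.6, 9.75 and 7.93, Fib, the fibrillarin gene, 11.2, 9.96 and 7.64, and the nucleolar gene nop5 7.96, 6.51 and 4.55. At RpL7 (10.2, 7.54 and 7.77) replicate 2 was the lowest.

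The 8 strongest members outside promoters all had ratios above 0. The highest, in an intron of ush with its nearest start, at -1369 bp, that of cbt, a zinc-finger transcription factor gene, had relative signals of 9.67, 9.36 and 14.4 (chr2L:480876-481299, signal 2067). Lk6, a kinase gene of the eIF4E pathway, had 6.25, 5.35 and 9.73 in an intron (chr3R:11760861-11761226, signal 1323). The ratios of the 8 ran from 0.48 at CG11050 to 0.83 in an intron of CG9663. Signals at the edge of the selection were 402 at wac, 402 in an intron of Lrch and 400 at CG2875 for the last members, and 399 at dhd, 399 at Nph and 398 in an exon of Stt3A for the first peaks lacking the box below it. The peak at Nph had a box with its centre 48.5 bp from the summit.

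The Myc locus itself, named after its values were seen, carried 2 members. One lay in an intron (chrX:3381818-3381929, signal 438) with relative signals of 2.06 in replicate 1 and 2.85 in replicate 3 and no summit within 100 bp in replicate 2. The second was intergenic with Myc as the nearest coding start (chrX:3360452-3360901, signal 423), with 2.09, 1.51 and 3.09. In both, replicate 3 was the highest. Also named in this way, srl, the fly gene of the PGC-1 coactivator family, had 3 strong summits in 1 peak interval, of which 2 held the box and 1 did not. In all, 17 members shared their interval with another listed summit and 18 had another member within 1000 bp, so neighbouring members are not independent.

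Members lay less often at promoters than peaks with the box. Promoters were taken as 500 bp up- and downstream of each coding gene's starts. Of the 402 members 320 were at promoters (79.6%, Wilson interval 75.4 to 83.3%), and 84 of the 93 peaks with the box (90.3%, interval 82.6 to 94.8%), an odds ratio of 0.418 (95% interval 0.177 to 0.881, Fisher's exact test, two-sided, p = 0.0169). Of the 404 strong promoter peaks, 79.2% thus lacked the box, which the selection itself sets. The promoter share was lower still at weaker peaks lacking the box (66.5%) and over all IDR peaks (68.4%), a difference from members that was not tested. Introns held 50 members and intergenic sequence 27, together more often than for peaks with the box (5 and 4, odds ratio 2.21, interval 1.05 to 5.22, exact p = 0.0329), and 5 members lay in exons. With peaks ranked without replicate 3, the promoter odds ratio was 0.486 (exact p = 0.0601) and the intron and intergenic odds ratio 1.90 (exact p = 0.108), so both calls were lost. In the strongest peaks of replicates 1, 2 and 3 alone, 83.9, 82.8 and 70.7% of those lacking the box were at promoters and 92.2, 90.2 and 88.5% of those holding it, the same direction in all 3.

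The 2 sides of the replicate 3 ratio differed in where they lay, as a description only. Of the 186 members at or below 0, 174 (93.5%) were at promoters, 7 in introns and 4 intergenic. Of the 207 above 0, 139 (67.1%) were at promoters, 42 in introns and 23 intergenic. Put the other way, 139 of 313 promoter members (44.4%) were above 0, against 42 of 49 in introns (85.7%) and 23 of 27 intergenic (85.2%). Over all IDR peaks found in the 3 replicates the same shares were 39.3% above 0 at promoters, 70.4% in introns and 68.1% in intergenic sequence. On the X, 38 members lay above 0 and 14 at or below. The like share over all IDR peaks on the X was not computed, so whether members differ from other X peaks is not known.

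**Figure D3:**
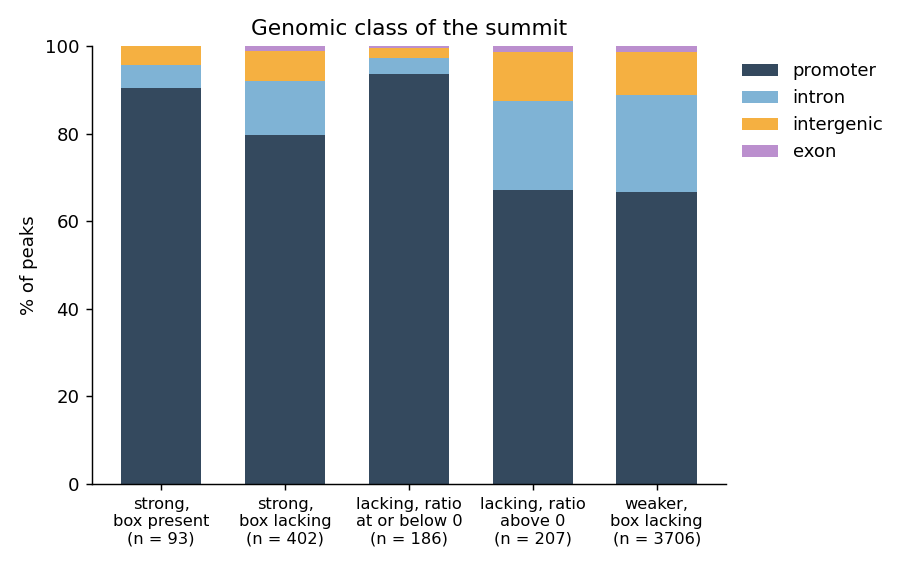
Genomic class of the summit (promoter, intron, intergenic, exon) as % of peaks in 5 sets, among them the members split at a replicate 3 ratio of 0. Promoters take 93.5% of the members at or below 0, 67.1% of those above it and 90.3% of the strong peaks with the box.

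Within promoters, member summits lay farther from the start than summits with the box. The median distance without regard to side was 65.5 bp for members and 20.5 bp for peaks with the box, a difference of 45 bp (permutation test of the medians, 100000 resamples, two-sided, p = 0.00035). With sign, the member median was -34 bp, upstream, and that of peaks with the box 11.5 bp, downstream. Within 50 bp of a start lay 136 of 320 members (42.5%) and 70 of 84 peaks with the box (83.3%). Without replicate 3 the difference was 33 bp (same permutation test, p = 0.00034). At weaker promoter peaks lacking the box the median distance without sign was 67 bp, with 40.5% within 50 bp. Over all promoter IDR peaks these values were 63 bp and 42.2%, so members lay near both. Members at or below a ratio of 0 had a median of -9.5 bp and those above 0 one of -117 bp. Starts of 2 or more genes were in reach of 150 member promoters (46.9%) and 32 of those with the box (38.1%), which did not pass the test (odds ratio 1.43, interval 0.854 to 2.43, Fisher's exact p = 0.175).

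**Figure D4:**
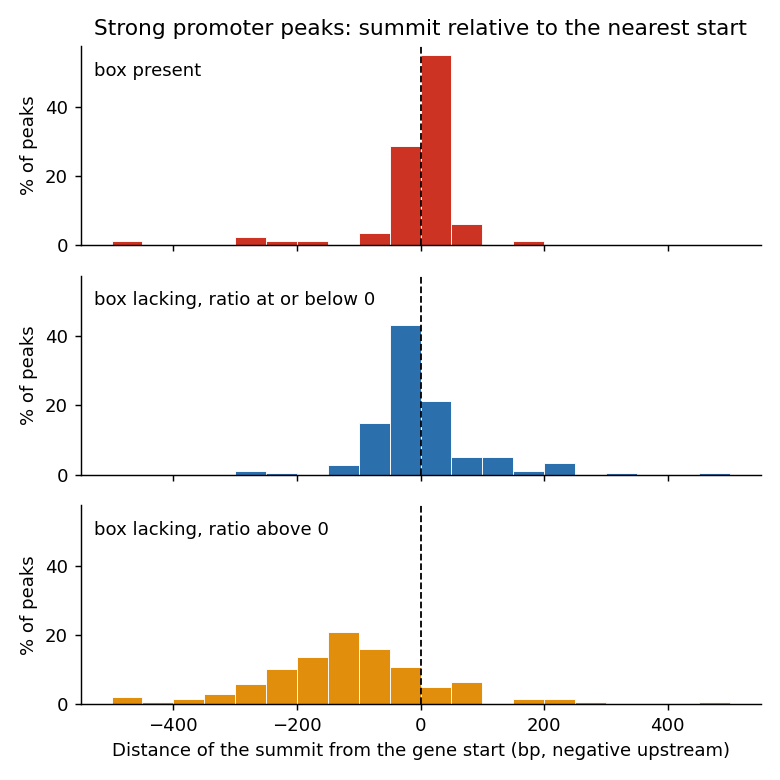
Distance of the summit from the nearest protein-coding start (bp, negative upstream, bins of 50 bp) as % of promoter peaks, for strong peaks with the box and for members split at a replicate 3 ratio of 0. Summits with the box cluster around a median of 11.5 bp and members at or below 0 around -9.5 bp, whereas members above 0 spread upstream around -117 bp.

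The DNA under member summits held less GC than that under summits with the box. With any CACGTG left out of the count, the mean was 40.0% ± 9.92 (SD over 402 peaks) at members and 43.9% ± 6.95 (SD over 93 peaks) at peaks with the box, a difference of -3.93 percentage points (permutation test of the means, 100000 resamples, two-sided, p = 0.00036). Without replicate 3 the difference was -1.92 points and the call was lost (same permutation test, p = 0.0597). It was -2.44 points at promoter peaks alone and -6.90 at a signal minimum of 600. Mean GC was 40.8% at weaker peaks lacking the box and 41.0% over all IDR peaks, both near the members. Over all IDR peaks with the box it was 44.5%. A word of mostly G and C is met less often in windows poor in GC, so the selection can itself lower the GC of members. Leaving the box out of the count does not undo that. Members above a ratio of 0 stood at 34.4% and those at or below at 46.1%. Among promoter members alone these values were 34.6 and 45.9%. The low GC of members above 0 was local: the bases 51 to 250 bp from the summit averaged 43.6% GC for members above 0 and 41.7% for those at or below. Over all members these outer bases averaged 42.8% and at strong peaks with the box 40.9%, the reverse of the order at the summit.

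A canonical box stood farther out more often than at weaker peaks. Between 51 and 250 bp from the summit, CACGTG was found at 72 members (17.9%) and at 271 of the 3706 weaker IDR peaks that also lacked a central box (7.31%), an odds ratio of 2.77 (interval 2.05 to 3.69, Fisher's exact test, two-sided, p = 6.1e-11). Of the members, 7 were selected only because the window ended within the box: its centre lay 48 to 53 bp from the summit. A further 31 had a centre up to 100 bp away and 41 up to 250 bp, while 265 (65.9%) had no box within 1000 bp. A box at 51 to 250 bp was present at 51 members at or below a ratio of 0 (27.4%) and at 16 above 0 (7.73%), near the 7.31% of the weaker peaks. Of 9 members not matched in every replicate, 5 had one.

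No other word passed the test between members and equally strong peaks with the box. The 19 words searched, on both strands and with CACGTG masked, were 5 variant E-boxes, 11 words of promoters and known fly factors and 3 palindromes taken as controls. None differed after adjustment (0.0% called, 3 with an unadjusted p under 0.05, smallest adjusted p = 0.305, Fisher's exact test with Benjamini-Hochberg adjustment). Among all 2079 other 6-base words, counting a word and its complement once, 0.0% were called as well, with 102 at an unadjusted p under 0.05. The intervals are wide: for CATGTG, found at 37 members (9.20%) and 4 peaks with the box (4.30%), the odds ratio of 2.26 had an interval of 0.779 to 8.93. The TATA word TATAAA was at 52 members (12.9%) and 5 peaks with the box (5.38%), with an interval of 1.01 to 8.63 and an adjusted p of 0.305 (Fisher's exact test).

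Against their own surroundings, member summits held more DRE and Motif 1 words. Each member's control was an equally wide window centred 500 bp away, left or right at random. Of the 19 words, 6 (31.6%) passed an exact McNemar test after adjustment. TATCGATA was at 24 member summits (5.97%) and 3 control windows (0.746%, exact McNemar test, adjusted p = 4.7e-04), and its core ATCGAT, which every TATCGATA contains, at 54 and 17 (13.4 and 4.23%, exact, adjusted p = 1.7e-04). GGTCACAC was at 14 and 1 (3.48 and 0.249%, exact, adjusted p = 0.0062) and the box with 1 base inserted, CAACGTG, at 12 and 2 (2.99 and 0.498%, exact, adjusted p = 0.041). Lower at summits were the GAGA factor word GAGAGAG, at none of 402 (which allows up to 0.746%) against 8 control windows (exact, adjusted p = 0.0371), and the control palindrome TCCGGA at 2 against 12 (exact, adjusted p = 0.041). With the control window on the other side the calls were 4, and CAACGTG and TCCGGA were not among them. CAACGTG also lost its call without replicate 2 and with the box sought within 25 or 100 bp. TCCGGA was likewise not called within 25 or 100 bp, nor GAGAGAG without replicate 2 or within 25 bp. With peaks ranked without replicate 3, which changes the set of members, the calls were 6 but not the same 6. CATGTG was called (11.1 against 5.94%, exact McNemar test, adjusted p = 0.0427) and GAGAGAG was not. TATCGATA, its core and GGTCACAC were called in each of these settings and at promoter members alone, but not at a signal minimum of 600, where no word was.

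Gene starts in general hold some of these words as often. In windows of the same width on the outermost start of each of 13945 protein-coding genes, TATCGATA was found at 5.56%, ATCGAT at 13.1% and GGTCACAC at 5.59%. These 3 words were at 11.8, 20.4 and 6.45% of strong peaks with the box. At weaker peaks lacking the box they were at 4.34, 10.1 and 3.59%. CAACGTG was found at 1.05% of starts and CATGTG at 2.98%, below the 2.99 and 9.20% of members, a difference that was not tested. CATGTG did not pass against the control windows (7.46%, exact McNemar test, adjusted p = 0.561) or the weaker peaks (7.29%, Fisher's exact test, adjusted p = 0.508). CACGCG (4.48% of members, 3.21% of starts), CAGCTG (5.97 and 9.34%) and CACGAG (2.74 and 2.70%) were the remaining variants. At least 1 of the 5 variant boxes was present at 92 members (22.9%). For the 4 variants of 6 bases the share was 20.6% at members, 20.3% at weaker peaks lacking the box and 15.7% at the control windows. No variant or other word of the 19 was found at 145 members (36.1%). Neither a variant box nor a CACGTG within 250 bp was present at 245 members (60.9%).

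The screen of 6-base words against the same control windows called 50 of 2079 (2.41%, exact McNemar test, adjusted). Of these, 25 were more frequent at summits and 25 less. The leading word was TATCGA, part of the DRE, at 68 summits and 11 control windows (16.9 and 2.74%, exact, adjusted p = 3.5e-08), followed among the higher ones by CGATAG (9.95 against 1.24%) and AAGTTA (9.45 against 1.49%). Of the 25 higher words 19 had at most 2 G or C bases, TTAAAA (23.6 against 10.2%) among them, and all 25 lower words had at least 3, with CTCCTC (0.995 against 10.2%) first.

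Compared with the weaker peaks lacking the box, members differed in the GAGA words. GAGAGAG, absent from the members, was at 89 of 3706 weaker peaks (2.4%, Fisher's exact test, adjusted p = 0.0035), the single call of 19 words (5.26%). The 6-base word within it, GAGAGA, was likewise the single call of 2079 (0.0481%). Ranking peaks without replicate 3 changed the set of strong peaks, as such a ranking favours peaks low in replicate 3. In that changed set 6 words were called, all more frequent at its strong peaks lacking the box than at its weaker ones. They included ATCGAT (15.2 against 9.94%, Fisher's exact test, adjusted p = 0.0202), TATCGATA (7.49 against 4.19%), CATGTG (11.1 against 7.09%) and CAACGTG (4.13 against 1.80%). Also called were the Pho word GCCATT (8.27 against 5.08%) and CTTTTC (14.0 against 8.52%, Fisher's exact test, adjusted p = 0.0143), a pyrimidine-rich word of the TCT initiator that ribosomal protein genes use. The GAGA words were then no longer called. Whether these calls follow from the changed set was not tested.

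The words divided along the replicate 3 ratio, again as a description. Any of the 4 variant E-boxes of 6 bases was at 65 of the 186 members at or below 0 (34.9%) and at 16 of the 207 above it (7.73%), with 15 of the 93 peaks with the box (16.1%) between. CACGCG was at 17 members at or below 0 and at none above, and CATGTG at 28 and 7. The DRE core was at 40 members at or below 0 (21.5%), close to the 20.4% of peaks with the box, and at 11 above (5.31%). GGTCACAC was at 12 and 2. TATAAA ran the other way, at 7 members at or below 0 (3.76%) and 43 above (20.8%). The same word was at 16.99% of coding gene starts, 13.2% of weaker peaks lacking the box and 8.21% of the control windows. TATAAA holds only A and T, and members above 0 averaged 34.4% GC. Whether its share there exceeds what that base content gives was not tested. Among promoter members alone the variant boxes were at 34.5 and 9.35%, the DRE core at 23.0 and 5.04% and TATAAA at 3.45 and 20.9%.

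**Figure D5:**
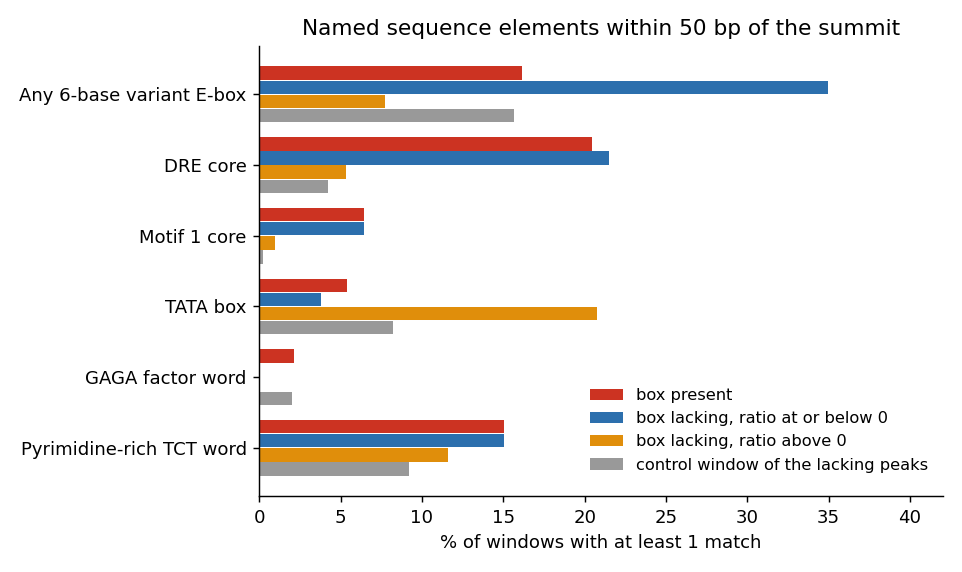
Share of windows of 50 bp to each side (%) with at least 1 match to 6 named sequence elements, for strong peaks with the box (n = 93), members split at a replicate 3 ratio of 0 (n = 186 and 207) and the control windows of all members (n = 402). Variant boxes and the DRE core are most frequent in members at or below 0, and the TATA word in those above 0.

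Of the 320 promoter members, 109 (34.1%) lay at a gene of at least 1 of the 16 lists, beside 38.1% of the promoter peaks with the box. Cytosolic ribosomal protein genes, which code for the ribosome itself, had 50 member peaks at 49 of the 92 genes of the list, against 11 peaks with the box. Peaks lacking the box were thus 82.0% of the strong peaks of this list, beside 79.2% of all strong promoter peaks. The 50 signals had a median of 567 and reached 1519, and 38 summits lay within 50 bp of the nearest start. After RpL14, RpL41 and RpL30 came RpL34b (signal 1288, shared with CG8132). Of the 46 found in all replicates, 42 had a ratio at or below 0, with a median of -0.46. The median ratio was -0.18 at all promoter members, -0.20 at all promoter IDR peaks and -0.48 at the ribosomal protein peaks with the box. The TCT word CTTTTC was at 18 of the 50, a box at 51 to 250 bp at 17 (34.0%), a variant box of 6 bases at 12 and the DRE core at 9. Over all 320 promoter members CTTTTC was at 15.0%, the box farther out at 20.6%, a variant box at 23.4% and the DRE core at 15.3%. The variant boxes and the DRE core were thus near their share over all promoter members.

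Translation factors, which bring the ribosome to the start codon and drive elongation, had 15 member peaks and none with the box. Of all strong promoter peaks 79.2% lacked the box, a share that the selection sets. eEF5, the factor that carries hypusine, had relative signals of 7.6, 5.63 and 5.36 (signal 1139), and eIF6, which keeps the large subunit from joining too early, 6.01, 4.47 and 7.69 (signal 1100). Replicate 3 was the lowest at eEF5 and the highest at eIF6. Also on this list were eEF1alpha1 (signal 953), eIF3a (876, shared with CG1074), eEF1gamma (824) and eEF2 (669). Of the 15 ratios 13 lay at or below 0, the exceptions being eIF6 (0.55) and eIF1 (0.02), and the median was -0.32. Of 3 aminoacyl-tRNA synthetase genes, which load the amino acids, all lay below 0: GlnRS (signal 1046, shared with the 40S maturation kinase gene RIOK2), SerRS (519) and IleRS (427). Over all promoter members found in every replicate, 174 of 313 lay at or below 0, and 3 peaks are too few to set this list apart.

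Genes of ribosome assembly were evenly divided. Of the 32 strong peaks of this list 16 held the box and 16 did not, whereas 79.2% of all strong promoter peaks did not. After Rrp5, the highest members without it were eIF6, which is in both lists, RIOK2 (signal 1046), with relative signals of 6.81, 5.65 and 4.46, and Ns1, a nucleolar GTPase gene (1008, shared with mRpS11). Of the 16, 15 lay at or below a ratio of 0, with a median of -0.50. A box at 51 to 250 bp was present at 10 of them (62.5%), beside 20.6% of all promoter members. RNA polymerases I and III, which make rRNA and tRNA, had 7 member peaks at 5 genes, led by Bdp1 of the polymerase III initiation factor TFIIIB (1102, shared with CG6565), and 2 peaks with the box. Peaks lacking the box were thus 77.8% of this list, near the 79.2% of all strong promoter peaks.

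Mitochondrial ribosomal protein genes were split. Of their 9 member peaks, 5 had a ratio above 0 and 4 at or below, with a median of 0.19. The highest after mRpS10 were mRpL41 (signal 1146) and mRpS23 (1059, shared with CenG1A). The 4 chaperone members, Hsc70-4 (519), Hsp83 (511), CCT7 (423) and CCT3 (423), all lay below 0. As 174 of 313 promoter members lay at or below 0, 4 peaks are too few to set this list apart. Of the 4 nuclear pore and transport members, Nup37 (1115) shared its peak with RpS27, and the others were Kap-alpha3 (592), Nup98-96 (544) and Nup160 (494). S6k, the ribosomal protein kinase gene of the TOR pathway (923, shared with kri), Art1 (456, shared with Mcm5 of the replicative helicase), Prosbeta1 (744, shared with Rrp42), COX5A (436) and Sf3b2 (427) were the remaining members of these lists. No nucleotide synthesis gene was a member, while 1 such peak, the only strong peak of its list, held the box.

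The 5 members at genes of secretion and glycosylation all had ratios above 0. They were Ugalt, TRAM, of protein translocation into the endoplasmic reticulum (signal 791), Alg3, a mannosyltransferase gene of the lipid-linked oligosaccharide (716), Stt3A, a catalytic subunit of oligosaccharyltransferase (614, shared with bves), and PIG-F of the GPI-anchor pathway (520, shared with Lon). Their ratios ran from 0.27 at Alg3 to 1.00 at Ugalt with a median of 0.51. No strong peak of the list held the box, and no member had one at 51 to 250 bp. Of all strong promoter peaks 79.2% lacked the box, and 20.6% of promoter members had one at 51 to 250 bp. Of all promoter members found in every replicate, 44.4% lay above 0. Another Stt3A peak, in an exon and just below the signal minimum (398), had a ratio of -0.51. Over the 16 lists together, 86 of 174 promoter members at or below a ratio of 0 (49.4%) belonged to at least 1, as did 19 of 139 above 0 (13.7%) and 32 of 84 promoter peaks with the box (38.1%). The lists are symbol patterns, were drawn up with results of these data known, and are described here without a test.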

How the data were processed

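Peak lists of Myc ChIP-seq in 3 replicates were used, with coordinates on dm6 per the labels. Chromatin was sonicated to 200 to 800 bp, per the labels. Peak signals are a score that the authors deposited, and summits follow from the deposited offset. Per the deposited file listing, the IDR list was made from the relaxed lists of the replicates and their pool. Not given in the sources used here are aligner, peak caller, IDR threshold and scaling of the score. Depth is unknown, so intervals over peaks cover counting error only. The dm3 lists and the pooled relaxed list were not used here.

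Genes came from Ensembl release 115 (BDGP6.54) and sequences from the RefSeq dm6 genome, after a check of arm lengths. A replicate's value is its strongest summit within 100 bp. A gene in reach has a start within 500 bp, and 1 summit can serve several. Tests (Python 3.11.15, scipy 1.17.1) were Fisher's exact test, an exact McNemar test and permutation tests with 100000 resamples, all two-sided, with Benjamini-Hochberg adjustment within each family of words and a threshold of 0.05. They treat peaks as units and measure spread over peaks, not over embryos. Word and permutation tests were checked on simulated data, with frequent words planted in random bases. That check does not measure power at the set sizes and word shares of these peaks. Alternatives were the signal minimum, the box window, the promoter width, promoter peaks alone, the other control side, unmasked words and leaving out each replicate, for which IDR peaks were ranked by mean relative signal in the other 2.

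Peaks are named by the nearest coding start. Named were the 12 strongest promoter members, the 8 strongest others, 3 on each side of the signal minimum, the 3 strongest with each word that passed a test, the 2 strongest of each gene list and the 5 strongest with the box. Of these, the text gives those that a comparison rests on. The members, words, lists and tests were chosen with earlier results of these data known. Sequences are the strongest of each word class with at most 30 annotated UTR bases, on the arms that could be shown.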

Additional observations from a re-analysis of the deposited data

How the results depend on the processing

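Of 121 values recomputed under alternatives, 87 kept their direction and their side of the threshold or moved little. The share lacking the box was 89.1% with the box sought within 25 bp, 73.5% within 100 bp, and 78.2 to 83.2% when 1 replicate was left out. The promoter odds ratio lost its call with a signal minimum of 600 (0.399) and promoters of 1000 bp (0.426), and was 0.260 to 0.486 with 1 replicate left out, the highest being without replicate 3. The intron and intergenic odds ratio lost its call within 25 bp (2.86), at a minimum of 600 (2.31) and with promoters of 1000 bp (2.20), and was 1.90 to 3.64 with 1 replicate left out. The shared promoter odds ratio passed with the box within 25 bp (1.88) and promoters of 250 bp (1.80), and turned to 0.892 with the box within 100 bp and 0.840 with promoters of 1000 bp. The GC difference was -4.75 to -1.92 points with 1 replicate left out, -2.44 at promoter peaks alone and -6.90 at a minimum of 600. Without masking, 17 words of 6 bases were called against peaks with the box, most of them overlapping the box. Against the control windows, 6-base calls were 165 at a minimum of 300, 4 at 600 and 83 within 25 bp, and fixed-word calls 0 at 600, 3 within 25 bp, 3 at promoters alone and 4 with the window on the other side. Against weaker peaks, 6-base calls were 6 at 300, 0 at 600, 4 within 25 bp, 2 within 100 bp, 2 at promoters alone and 0 to 1 with 1 replicate left out. Fixed-word calls there were 0 at 300, 0 at 600, 2 within 25 bp, 2 within 100 bp, 2 at promoters alone and 1 to 6 with 1 replicate left out. Fewer peaks enter at a minimum of 600; the cause of the other changes was not tested. No paired analysis was possible because the samples form 1 group. The box farther out and the distance to the start kept their calls under every alternative run. The distance was not rerun at other promoter widths, nor the box farther out at promoter peaks alone. With the box sought within 25 or 100 bp, the outer range began beyond that window. The peak lists give no read counts, so the depth behind each value is unknown.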

Other observations

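Some neighbouring summits within 1 peak behaved differently, chosen after their values were seen. At dom, a chromatin remodeller gene, the stronger summit had relative signals of 5.38, 5.24 and 4.17 in replicates 1, 2 and 3, whereas a second member summit in the same interval had 3.32, 3.56 and 0.821. At CG5114 the stronger summit held the box (7.01, 6.07 and 4.49), and a weaker member summit in the same interval had 2.24, 3.33 and 0.823. Both second summits were low in replicate 3, the lowest ratios of all members (-2.07 and -1.76). The highest ratio was in an intron of NFAT (1.79, 0.628 and 3.82, ratio 1.66). Of the members, 32 (7.96%) had a non-coding RNA gene within 250 bp, beside 7.39% of all IDR peaks and 9.68% of strong peaks with the box.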
